A study of Mus musculus with 12 samples.

Results

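Macrophages enter injured skeletal muscle, clear dead myofibers and then take on a repair state in which they remove lipid and debris and release factors that act on muscle stem cells and fibroblasts. Their identity is maintained by CSF1 receptor signalling and the transcription factor PU.1, and the receptor TREM2, which signals through the adaptor TYROBP, is known for its role in lipid handling and phagocytosis. The genes described here are 10 markers of these cells, 10 of the 37748 genes in the count table, chosen by name: Emr1, Cd68, Csf1r, Lyz2, Itgam and Fcgr1, which mark macrophages as such, and Mrc1, Gpnmb, Spp1 and Trem2, which are tied to resident, lipid-associated or repair-phase macrophages. The 10 genes were chosen with earlier results of these data known. Each name matched a single gene.

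RNA was sequenced from gastrocnemius muscle of 12 mice aged 13 weeks, 3 in each of 4 groups, as poly(A)-selected, randomly primed libraries read from 1 end for 50 bases. The mice model facioscapulohumeral muscular dystrophy (FSHD), in which the transcription factor DUX4-fl is expressed in muscle. ACTA1-MCM mice carry MerCreMer, a Cre recombinase that acts after tamoxifen (TMX), under the skeletal muscle promoter of ACTA1. FLExD mice carry FLExDUX4, a DUX4-fl transgene in the Rosa26 locus that Cre recombination turns on.

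ACTA1-MCM and FLExD mice each held a single transgene and, by the labels, received no TMX. The moderate and severe groups were bi-transgenic for ACTA1-MCM and FLExD. Moderate mice received 1 intraperitoneal injection of TMX at 5 mg/kg, and severe mice received 2 injections of 10 mg/kg on consecutive days; muscles were taken on day 9. Since by these labels no group without DUX4-fl received TMX, effects of TMX and of DUX4-fl induction cannot be told apart, and since the ACTA1 promoter confines Cre to skeletal muscle, DUX4-fl is induced in myofibers and not, by design, in macrophages. The paper reports low DUX4-fl expression in bi-transgenic mice even without TMX, so comparisons with ACTA1-MCM mice include its effects as well.

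The libraries held between 23796902 and 29136403 expected counts, the read numbers that RSEM assigns to genes. Levels are given as CPM, counts per 1000000 of a library size adjusted by TMM, a scaling that takes most genes as equal between libraries; 3 counts correspond to 0.0676 to 0.155 CPM. The TMM factors differed by group, from 0.706 to 0.76 in the control groups, 1.06 to 1.13 in moderate and 1.69 to 1.87 in severe mice. Scaling by library size alone would raise the median log2 fold change of all genes from 0.04 to 0.65 in moderate and from 0.08 to 1.39 in severe mice against ACTA1-MCM, and from 0.02 to 0.72 between severe and moderate mice. Adult myofiber genes identified the tissue in all 12 libraries: the summed level of 8 such genes, with Tnnt3 at the highest mean TPM in each group, was 146452 to 193302 CPM in ACTA1-MCM mice, 136299 to 170343 CPM in FLExD mice, 61943 to 75492 CPM in moderate mice and 9190 to 16873 CPM in severe mice. The sexes were alike in the 4 groups by Xist, present in each, and by the Y-linked genes Ddx3y and Eif2s3y, with 0 or 1 count per group. Mean Xist levels were 152, 138, 208 and 298 CPM in ACTA1-MCM, FLExD, moderate and severe mice. Under TMM Xist was called higher in severe mice (log2 fold change 0.97) and between severe and moderate mice (0.52). Uty, another Y-linked gene, had group means of 0.440 to 0.583 TPM, and none of the Y-linked genes read could be tested.

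Tests compared groups with edgeR in 1 fit of all 12 libraries. To be called, a gene needed an adjusted p under 0.05 (Benjamini-Hochberg over 16679 genes with enough counts) and a log2 fold change of 0.5 or more in either direction. All 10 genes could be tested. Trem2 had 4 to 7 counts and Fcgr1 had 8 to 11 counts in each ACTA1-MCM mouse, so both passed the count filter through the induced groups.

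The moderate and severe groups were each compared with ACTA1-MCM mice to ask how macrophage RNA in the muscle responds to DUX4-fl induction at a lower and a higher TMX regimen; these comparisons share their controls. All 10 genes were called higher in moderate mice, where 24.4% of all genes tested were, with folds from 3.17 (Mrc1) to 33.0 (Spp1) and a median log2 fold change of 3.03. All 10 were also called higher in severe mice, where 32.9% of all genes were, with folds from 6.25 (Mrc1) to 138 (Spp1) and a median of 4.42. Trem2 and Fcgr1 passed the count filter through the induced groups, so their calls against ACTA1-MCM mice add no support to these counts. Since the 10 genes were chosen with earlier results known, counts beside the share of all genes describe them and test nothing. Between severe and moderate mice, all 10 were called higher again against 17.6% of all genes, with folds from 1.96 (Csf1r) to 4.20 (Spp1) and a median of 1.24. For each of the 10, every mouse of the more strongly induced group lay above every mouse of the other in these 3 comparisons, as was so for 32.6%, 40.0% and 30.5% of all genes tested. In these bulk samples, more macrophages in the muscle and more RNA of these genes per macrophage cannot be told apart.

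**Figure D1:**
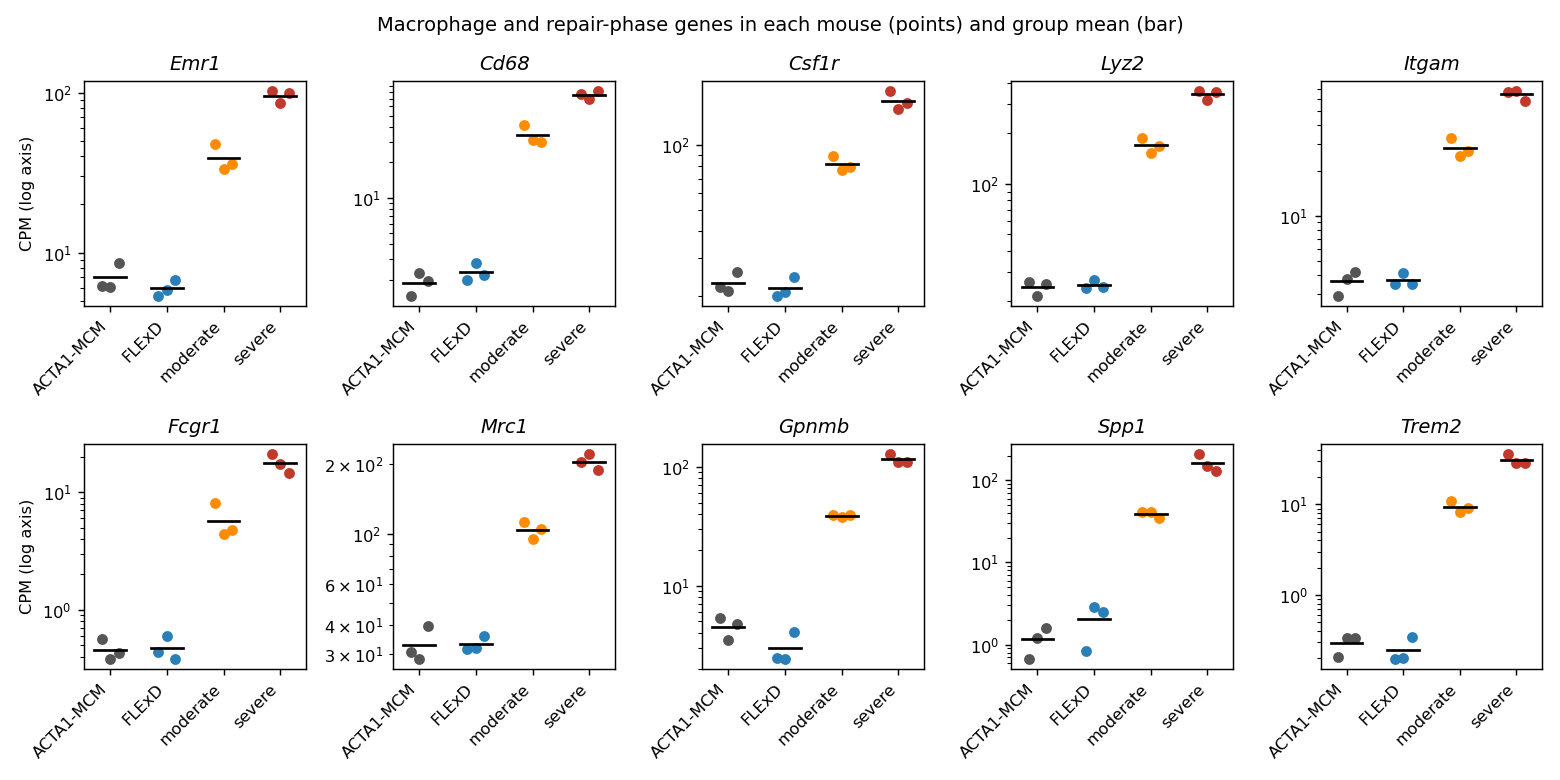
Level of each of the 10 genes in CPM on a log axis, with a point per mouse and a bar at the mean of 3 mice for ACTA1-MCM, FLExD, moderate and severe mice. ACTA1-MCM and FLExD points overlap in every panel, and severe points lie above moderate points, as for Spp1 with 129 to 209 CPM against 34.7 to 41.1 CPM.

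FLExD mice were compared with ACTA1-MCM mice to show how much these genes vary between the uninduced lines. None of the 10 was called by edgeR, beside 0.00600% of all genes tested. At an unadjusted p under 0.05 the count was 1, beside 638 of the 16679 genes tested, and DESeq2 and limma each called 0. That gene was Gpnmb, with 5.34, 3.47 and 4.74 CPM in ACTA1-MCM mice and 2.46, 2.43 and 4.10 CPM in FLExD mice; edgeR gave it a log2 value of -0.59 ± 0.20 (fold change with its standard error) and an adjusted p of 1.00. The log2 fold changes of the 10 ran from -0.59 to 0.80, and the groups overlapped for each of them. The highest belonged to Spp1, which reached 2.83 and 2.46 CPM in FLExD mice 1367 and 1378 against at most 1.61 CPM in ACTA1-MCM mice.

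Among the genes that mark macrophages as such, Csf1r encodes the receptor for CSF1 and IL-34, on which most tissue macrophages depend. Its level was 22.2, 21.2 and 26.0 CPM in ACTA1-MCM mice 1127, 1246 and 1349, and 20.1, 20.9 and 24.7 CPM in FLExD mice 1358, 1367 and 1378. It was 89.1, 76.9 and 79.4 CPM in moderate mice 1236, 1308 and 1331 and 178, 147 and 157 CPM in severe mice 1047, 1066 and 1079. Every moderate mouse thus lay above every control mouse, and every severe mouse above every moderate mouse. The log2 fold change was 1.82 ± 0.11 in moderate mice (adjusted p 2.32e-08, edgeR) and 2.79 ± 0.12 in severe mice (adjusted p 1.56e-10, edgeR). Csf1r shares 873 of its 5774 exon bases with Hmgxb3 on the other strand. The mean level of Hmgxb3 was 21.7, 21.7, 17.4 and 16.4 CPM in ACTA1-MCM, FLExD, moderate and severe mice, and it was not called in any comparison with ACTA1-MCM mice.

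Emr1 (Adgre1 in GENCODE; mm10 chr17:57358691-57483527, plus strand) encodes F4/80, an adhesion receptor of mature mouse macrophages. The ACTA1-MCM mice had 6.22, 6.12 and 8.67 CPM, the FLExD mice 5.36, 5.85 and 6.75 CPM, the moderate mice 47.5, 33.4 and 36.0 CPM and the severe mice 102, 85.8 and 99.3 CPM. The lowest moderate mouse was 3.85 times the highest ACTA1-MCM mouse. The log2 fold change of Emr1 was 2.47 ± 0.16 in moderate mice (adjusted p 4.22e-08, edgeR) and 3.77 ± 0.17 in severe mice (adjusted p 3.02e-10, edgeR).

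Cd68 (chr11:69664213-69666153, minus strand) encodes a glycoprotein of late endosomes and lysosomes that is abundant in phagocytes. It was scarce in control muscle, at 1.45, 2.26 and 1.94 CPM in ACTA1-MCM and 1.97, 2.78 and 2.17 CPM in FLExD mice. It reached 41.9, 31.1 and 30.0 CPM in moderate mice and 76.6, 69.0 and 80.7 CPM in severe mice. The lowest moderate mouse was 13.3 times the highest ACTA1-MCM mouse, the widest such gap among the 6 general markers. The log2 fold changes were 4.18 ± 0.18 in moderate (adjusted p 1.38e-09, edgeR) and 5.31 ± 0.18 in severe mice (adjusted p 5.78e-11, edgeR).

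Lyz2 (chr10:117277331-117282321, minus strand) encodes lysozyme M of myeloid cells, Itgam (chr7:128062640-128118491, plus strand) the integrin CD11b, and Fcgr1 (chr3:96282909-96293969, minus strand) the high-affinity IgG receptor CD64. Lyz2 was 21.5 to 26.2 CPM in ACTA1-MCM, 24.1 to 26.8 CPM in FLExD, 152 to 188 CPM in moderate and 318 to 356 CPM in severe mice, with folds of 6.98 and 14.0 over ACTA1-MCM. Itgam rose from 2.90 to 4.22 CPM in ACTA1-MCM mice to 25.0 to 33.0 CPM in moderate and 58.4 to 67.7 CPM in severe mice, folds of 7.78 and 17.7. Fcgr1 rose from 0.385 to 0.570 CPM in ACTA1-MCM mice to 4.41 to 8.01 CPM in moderate and 14.5 to 21.1 CPM in severe mice, folds of 12.4 and 38.1. Reads were divided between genes for Lyz2, Itgam and Csf1r, whose expected counts were not whole in 12 of 12 mice. Lyz1, the neighbouring lysozyme gene (chr10:117287797-117292868), had mean levels of 2.16, 2.25, 3.28 and 3.79 CPM in ACTA1-MCM, FLExD, moderate and severe mice, far under Lyz2. Itgam shares 3450 of 5024 exon bases with Gm49368, a gene annotated on the same strand that has no entry in the count table.

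Mrc1 (chr2:14229392-14332057, plus strand), which encodes the mannose receptor CD206 of resident and alternatively activated macrophages, had the smallest fold of the 10 against ACTA1-MCM mice. Its levels were 30.4, 28.5 and 39.4 CPM in ACTA1-MCM mice, 31.3, 31.6 and 35.9 CPM in FLExD mice, 112, 94.7 and 105 CPM in moderate mice and 204, 222 and 189 CPM in severe mice. The groups were apart, with the lowest severe mouse 1.69 times the highest moderate mouse. The log2 fold changes were 1.66 ± 0.12 in moderate (adjusted p 1.04e-07, edgeR) and 2.64 ± 0.13 in severe mice (adjusted p 4.32e-10, edgeR).

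Gpnmb (chr6:49036546-49070929, plus strand) encodes a transmembrane glycoprotein of lysosomes and melanosomes that phagocytic and lipid-laden macrophages express. Its moderate levels were close together, at 39.2, 37.8 and 39.5 CPM, and its severe levels were 128, 110 and 110 CPM. Every severe mouse was at least 2.78 times every moderate mouse. The log2 fold changes were 3.11 ± 0.17 in moderate (adjusted p 1.13e-08, edgeR) and 4.69 ± 0.18 in severe mice (adjusted p 9.65e-11, edgeR).

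Spp1 (chr5:104435118-104441050, plus strand) encodes osteopontin, a secreted ligand of CD44 and several integrins that macrophages release in injured and dystrophic muscle. ACTA1-MCM mice 1127, 1246 and 1349 had 13, 25 and 34 counts, or 0.674, 1.2 and 1.61 CPM, and FLExD mice had 0.836, 2.83 and 2.46 CPM. Moderate mice had 41.1, 40.7 and 34.7 CPM, and severe mice 1047, 1066 and 1079 had 209, 151 and 129 CPM. Spp1 thus had the largest fold of the 10 in each of the 3 comparisons of induced mice in edgeR, though in moderate mice Trem2 was higher with limma on log2(TPM + 0.1) and without mouse 1127, 1246 or 1308, and the largest relative spread among ACTA1-MCM mice, with an SD of 40% of the mean. Its log2 fold change was 5.04 ± 0.36 in moderate mice (adjusted p 6.72e-07, edgeR) and 7.11 ± 0.37 in severe mice (adjusted p 1.61e-08, edgeR). Ranked by log2 fold change in severe mice, Spp1 was number 89 of the 16679 genes tested. Spp1 shares 309 of 1648 exon bases with Gm42793, annotated on the same strand and without an entry in the count table.

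Trem2 (chr17:48346401-48354147, plus strand) encodes the lipid-sensing receptor described above. It was near the floor in control muscle, at 0.207, 0.337 and 0.332 CPM in ACTA1-MCM and 0.197, 0.198 and 0.338 CPM in FLExD mice. The moderate mice had 10.9, 8.17 and 9.14 CPM and the severe mice 36.1, 28.6 and 28.5 CPM. The log2 fold changes were 4.98 ± 0.23 in moderate (adjusted p 2.49e-09, edgeR) and 6.70 ± 0.21 in severe mice (adjusted p 3.99e-11, edgeR); with 4 to 7 counts in each ACTA1-MCM mouse, the size of these folds is imprecise.

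**Figure D2:**
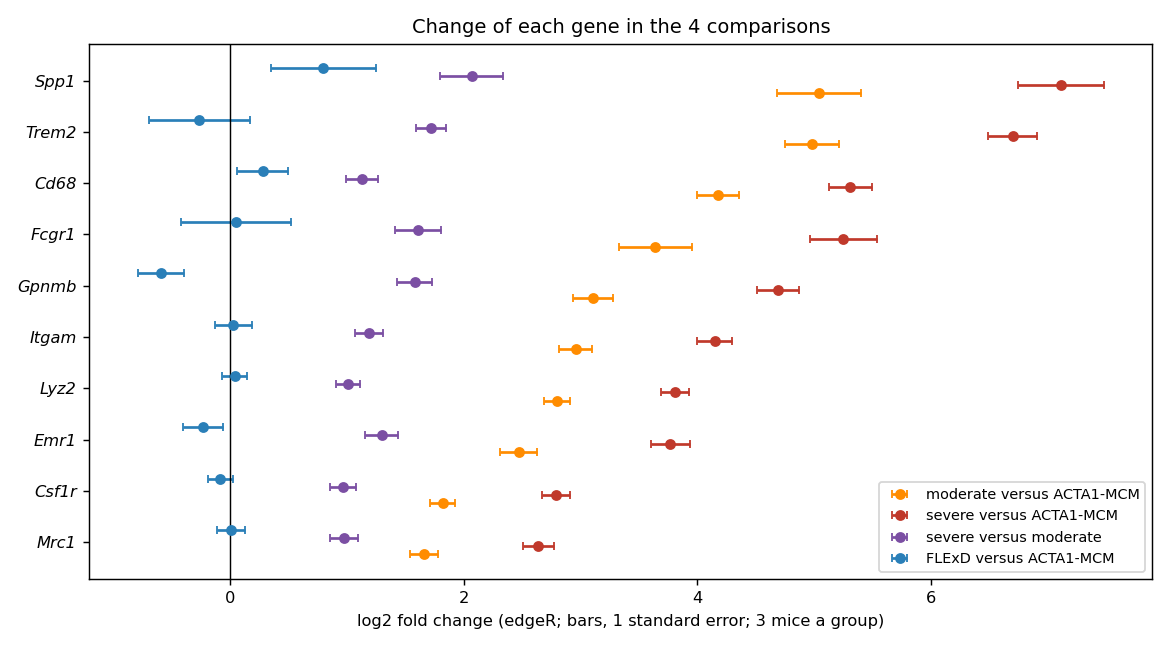
Log2 fold change (horizontal axis) of each gene (vertical axis) from edgeR in the 4 comparisons of 3 mice with 3, with bars of 1 standard error. Spp1 (7.11) and Trem2 (6.70) lie farthest to the right in severe mice and Mrc1 (2.64) and Csf1r (2.79) the least far, while FLExD points lie between -0.59 and 0.80.

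The severe group was compared with the moderate group to ask whether the larger TMX regimen gave more of these RNAs. The log2 fold change was 2.07 ± 0.27 for Spp1 (adjusted p 9.09e-05, edgeR), 1.72 ± 0.13 for Trem2 (adjusted p 9.48e-07, edgeR), 1.61 ± 0.20 for Fcgr1 (adjusted p 2.41e-05, edgeR) and 1.58 ± 0.15 for Gpnmb (adjusted p 3.14e-06, edgeR). It was 1.30 ± 0.14 for Emr1, 1.19 ± 0.12 for Itgam, 1.13 ± 0.14 for Cd68 and 1.01 ± 0.10 for Lyz2. Mrc1 with 0.98 ± 0.12 and Csf1r with 0.97 ± 0.11 had the smallest values. For all genes tested, values between -1.33 and 1.30 hold the range from the 5th to the 95th percentile.

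Moderate mouse 1236 had the highest level of its group in 9 of the 10 genes and mouse 1308 the lowest in 8. In the severe group mouse 1047 was highest in 7 of the 10, and mice 1066 and 1079 were each lowest in 5. In the control groups the highest level fell to FLExD mice 1367 and 1378 in 5 genes each and to ACTA1-MCM mice 1127, 1246 and 1349 in 3, 2 and 5. Leaving out any single mouse kept all 10 genes called in the 3 comparisons of induced mice.

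Levels of different genes can be compared only per transcript length, as TPM (transcripts per 1000000). The deposited TPM lies above 0 even without counts, as for Csf3 in FLExD mice with 0 counts and a mean of 0.0533 TPM, so TPM of genes with few counts, such as Trem2, Fcgr1 and Spp1 in control mice, may lie too high and their rise in TPM be too small. In ACTA1-MCM mice the order of mean TPM began with Lyz2 (36.5 ± 4.01, SD, n = 3), followed by Mrc1 (5.81) and Csf1r (5.50), which did not differ beyond their spread, and Emr1 (2.84). Cd68 (1.85), Gpnmb (1.76), Spp1 (1.53) and Itgam (1.43) came next, each within the spread of its neighbour, and Fcgr1 (0.407) and Trem2 (0.330) were lowest and likewise not apart. In severe mice Lyz2 (1184) was still the most abundant, and Spp1 (271 ± 80.4, SD, n = 3) and Cd68 (136) stood above Gpnmb (104), Csf1r (91.0), Mrc1 (83.3), Emr1 (69.0) and Trem2 (59.3), whose neighbours in the order were within their spread. Itgam (32.5) and Fcgr1 (24.6) were lowest. In moderate mice the order was Lyz2 (355), Spp1 (40.1) and Cd68 (38.2), Csf1r (27.6) and Mrc1 (25.5), Gpnmb (21.0), Emr1 (16.8), Trem2 (10.8) and Itgam (9.25), and Fcgr1 (4.85). Spp1 and Cd68 thus passed Mrc1 and Csf1r in moderate and severe mice on the TPM scale. The summed TPM of the 10 genes was 51.3 to 64.7 in ACTA1-MCM, 49.5 to 66.7 in FLExD, 521 to 598 in moderate and 1826 to 2311 in severe mice, with Lyz2 giving 55.6 to 66.4% of the sum in each mouse.

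Whether the 10 genes changed in proportion to each other was examined within each library, as the log2 ratio of a gene's CPM to the geometric mean of Emr1, Cd68 and Csf1r (for these 3, to the other 2), which does not depend on the scaling between libraries. An exact two-sided permutation test of 3 mice against 3 cannot give a p under 0.10, so these ratios can reach no call. Spp1 had the largest gain in CPM: its log2 ratio was -3.12, -2.47 and -2.24 in ACTA1-MCM mice, -0.45, -0.08 and -0.35 in moderate mice and 0.90, 0.66 and 0.26 in severe mice. The groups did not overlap, and the mean ratio differed from ACTA1-MCM by 2.31 in moderate and 3.21 in severe mice and by 0.90 between severe and moderate mice (exact permutation p = 0.10 for each). FLExD mice had Spp1 ratios of -2.83, -1.30 and -1.53, which overlap those of ACTA1-MCM mice.

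As ratios of TPM, the gains of Spp1 and Trem2 were 1.64 and 1.94 in moderate and 2.50 and 2.52 in severe mice, so their order differed between CPM and the deposited TPM; the cause was not tested. In CPM Trem2 had log2 ratios of -4.82, -4.30 and -4.52 in ACTA1-MCM mice, -2.36, -2.40 and -2.27 in moderate mice and -1.63, -1.74 and -1.92 in severe mice. Its mean ratio was higher than in ACTA1-MCM mice by 2.20 in moderate and 2.78 in severe mice and higher by 0.58 in severe than in moderate mice (exact permutation p = 0.10 for each). Mrc1 went the other way, from 2.38, 2.10 and 2.38 in ACTA1-MCM mice to 1.00, 1.14 and 1.25 in moderate and 0.87, 1.22 and 0.81 in severe mice. The Mrc1 ratio differed from ACTA1-MCM by -1.16 in moderate and -1.32 in severe mice (exact permutation p = 0.10 for each) and by -0.16 between severe and moderate mice (exact permutation p = 0.30), which overlapped.

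Gpnmb was between these, with ratio differences from ACTA1-MCM of 0.30 in moderate (exact permutation p = 0.40) and 0.73 in severe mice (exact permutation p = 0.10). Among the general markers, Cd68 gained 2.04 and 2.05 against Emr1 and Csf1r in moderate and severe mice (exact permutation p = 0.10 for each), while Csf1r differed by -1.51 and -1.77 against Emr1 and Cd68 (exact permutation p = 0.10 for each). These sizes depend on the reference. Against C1qa, C1qb and C1qc, Cd68 gained 1.55 and 1.41, and Csf1r differed by -0.83 and -1.14, less than Mrc1 with -0.97 and -1.28. Fcgr1 gained 0.78 and 1.29 (exact permutation p = 0.10 for each), and Emr1 differed by -0.53 (exact permutation p = 0.10) and -0.28 (exact permutation p = 0.20). Lyz2 with -0.03 (exact permutation p = 1.00) and -0.16 (exact permutation p = 0.50), and Itgam with 0.14 (exact permutation p = 0.10) and 0.19 (exact permutation p = 0.30), lay closest to the reference genes, and the sign of these values turned when TPM replaced CPM. Between severe and moderate mice the ratio differences were 0.43 for Gpnmb (exact permutation p = 0.10), 0.51 for Fcgr1 (exact permutation p = 0.20) and 0.01 for Cd68 (exact permutation p = 0.70); the value for Cd68 turned below 0 against C1qa, C1qb and C1qc and as TPM.

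**Figure D3:**
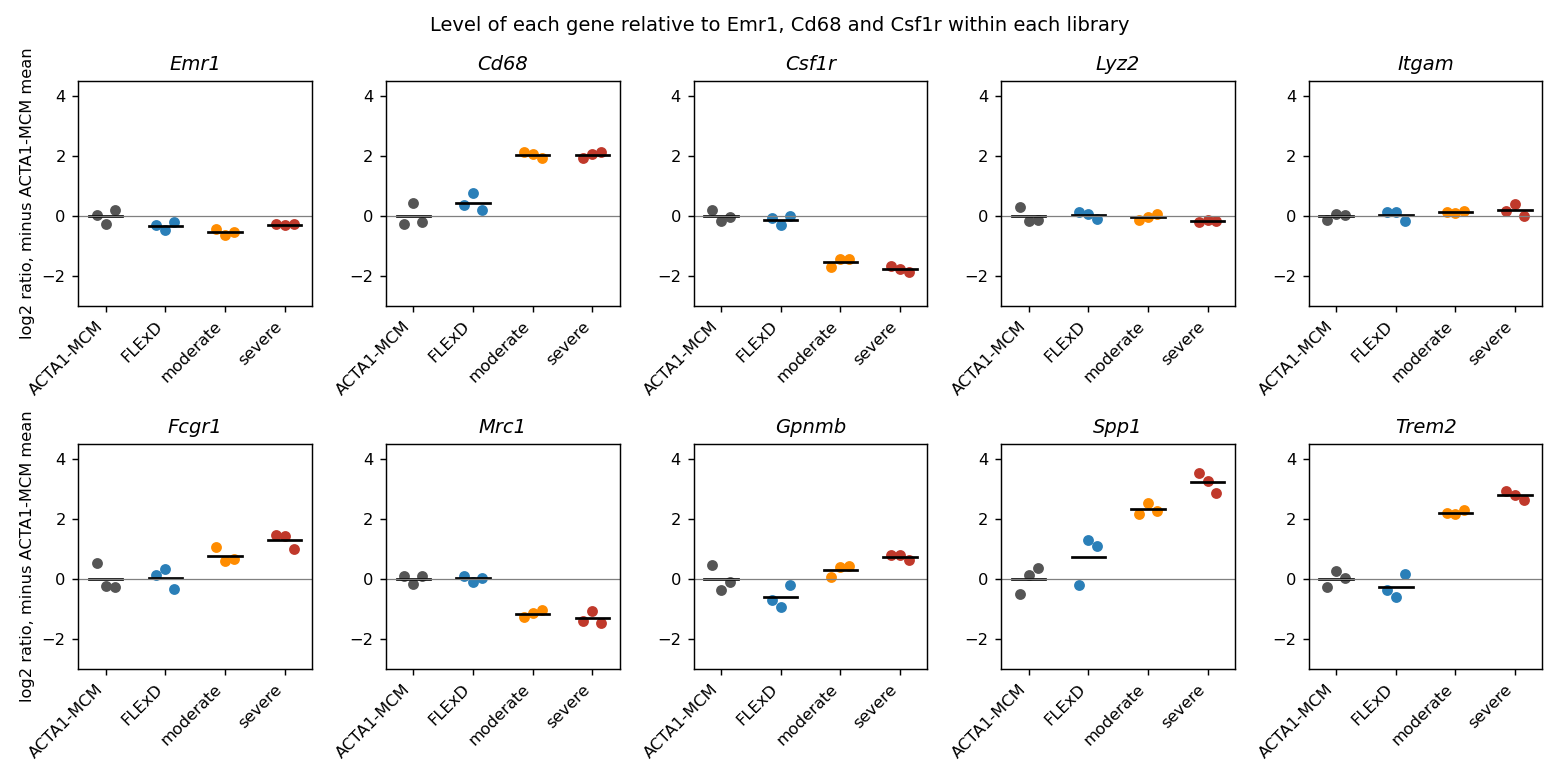
Log2 ratio of each gene to Emr1, Cd68 and Csf1r in the same library, minus the ACTA1-MCM mean (vertical axis), with a point per mouse and a bar at the group mean. Spp1 and Trem2 rise to means of 3.21 and 2.78 in severe mice, Mrc1 and Csf1r go to -1.32 and -1.77, and Lyz2 and Itgam stay near 0. Csf1r is set against Emr1 and Cd68 only, so its value cannot be ranked against that of Mrc1. Against C1qa, C1qb and C1qc they were -1.14 for Csf1r and -1.28 for Mrc1 in severe mice.

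The 250 bases before the transcription start were examined for short motifs, since the 10 genes moved together. Promoters from RefSeq (GRCm38.p6) were read for 8 of them, and those of Emr1 and Csf1r were not examined. The motifs, searched on both strands, were GAGGAAGT and the GGAAGT within it (PU.1 type), TGANTCA (AP-1 type), CACGTG and the longer TCACGTGA (E-box type), and TCATGTGA (M-box type). GAGGAAGT was found in 1 member, Spp1, and in 2.44% of 32851 promoters. GGAAGT was found in 4 (Fcgr1, Lyz2, Mrc1 and Spp1) and in 19.7% of all promoters. TGANTCA was found in 2 (Cd68 and Trem2) and in 6.75% of all promoters. CACGTG, TCACGTGA and TCATGTGA were found in 0 of the 8 and in 6.02%, 0.785% and 0.846% of all promoters. A match describes these letters and not a bound site.

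The windows of Spp1, Trem2 and Cd68 are shown because they belong to the 3 genes with the largest folds in severe mice; capitals mark GAGGAAGT in Spp1 and TGANTCA in Trem2 and Cd68, and each sequence runs 5′ to 3′ on the strand of its gene, from RefSeq. The Spp1 window is chr5:104434861-104435110 on the plus strand, with its match from -113 to -106 of the start. The Trem2 window is chr17:48346151-48346400 on the plus strand, with its match from -9 to -3. The Cd68 window is chr11:69666171-69666420 on the minus strand, with matches from -149 to -143 and from -24 to -18. GENCODE has no gene within these 3 windows, while a further RefSeq start of Spp1 has a window with 0 matches.
Spp1: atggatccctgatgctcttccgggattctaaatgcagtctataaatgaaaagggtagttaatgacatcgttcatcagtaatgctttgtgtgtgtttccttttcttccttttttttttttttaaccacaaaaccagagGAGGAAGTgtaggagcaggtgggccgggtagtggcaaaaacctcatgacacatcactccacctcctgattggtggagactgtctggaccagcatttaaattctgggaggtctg
Trem2: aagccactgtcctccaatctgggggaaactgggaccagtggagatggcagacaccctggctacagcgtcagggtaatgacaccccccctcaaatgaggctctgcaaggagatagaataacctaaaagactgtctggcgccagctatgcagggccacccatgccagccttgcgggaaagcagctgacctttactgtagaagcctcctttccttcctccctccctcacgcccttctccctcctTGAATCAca
Cd68: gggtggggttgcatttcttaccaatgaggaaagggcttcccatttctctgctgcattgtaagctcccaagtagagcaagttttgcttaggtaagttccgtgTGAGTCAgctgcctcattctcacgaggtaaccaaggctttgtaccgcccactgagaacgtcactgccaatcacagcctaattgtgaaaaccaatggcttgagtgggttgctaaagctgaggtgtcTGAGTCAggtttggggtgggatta

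Genes around these 10 were read from lists of receptors, ligands and markers, each described by the number called and by its median log2 fold change beside that of all genes tested, 0.04 in moderate, 0.08 in severe and 0.02 in severe versus moderate mice. Of all genes tested, 24.4% were called higher in moderate mice, 32.9% in severe mice and 17.6% between severe and moderate mice. The shares called lower were 17.0% in moderate mice, 27.9% in severe mice and 18.8% between severe and moderate mice. Among the genes called, 59.0%, 54.1% and 48.4% were higher in these comparisons, against 92.1%, 92.2% and 92.1% when libraries were scaled by size alone and 87.7 to 92.7% when limma was run on TPM, so calls of lower genes hold relative to the TMM scaling. List genes with few counts in ACTA1-MCM mice passed the count filter through the induced groups. Among them were Cx3cr1, Itgax, Chi3l3, Cd4, Gdf3, Mmp8, Retnlg, Ccr7, Atp6v0d2 and Tmem8c. Their calls against ACTA1-MCM mice add no support to the counts of their lists.

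Ligands of the CSF1 receptor were listed with related growth factors and their receptors: of 5 tested of 7 listed, 4 were called higher in moderate mice, 5 in severe mice and 3 between severe and moderate mice (the receptor genes Csf2ra, Csf2rb and Csf3r), with 0 lower and medians of 1.99, 2.84 and 0.85. Csf1 rose from a mean of 10.7 CPM in ACTA1-MCM mice to 20.0 CPM in moderate and 26.7 CPM in severe mice, log2 fold changes of 0.90 ± 0.14 and 1.32 ± 0.14. Il34, the other ligand, was 1.92, 2.22 and 3.12 CPM in these groups and was called in severe mice only, at 0.70 ± 0.19; between severe and moderate mice neither ligand was called. Under library size alone all 5 were called higher in the 3 comparisons, as with limma on log2(TPM + 0.1). Csf3r, the receptor for G-CSF, rose most, by 3.84 ± 0.29 in severe mice. The cytokine genes Csf2 and Csf3 had 0 to 3 counts per group and could not be tested.

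Adaptors and kinases that act under TREM2 and the Fc receptors followed their receptors: 9 of 10 were called higher in moderate mice, 10 in severe mice and 9 between the induced groups, with 0 lower and medians of 2.04, 2.98 and 1.00. Tyrobp, the adaptor of TREM2, rose from 2.50 CPM in ACTA1-MCM mice to 15.2 CPM in moderate and 37.1 CPM in severe mice, log2 fold changes of 2.60 ± 0.14 and 3.89 ± 0.14. Fcer1g, the adaptor of the IgG receptor encoded by Fcgr1, rose by 2.89 ± 0.20 and 4.07 ± 0.19. Btk, a kinase of B cells and myeloid cells, had the smallest value of the list in severe mice, 1.72 ± 0.20.

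Other macrophage genes were all called higher, 18 of 18 in each of the 3 comparisons, with medians of 2.69, 3.90 and 1.28. Cx3cr1, the fractalkine receptor, rose from 0.331 CPM to 4.82 CPM in moderate and 17.2 CPM in severe mice. Its ACTA1-MCM level lay below the 0.461 CPM of Fcgr1, so it too passed the count filter through the induced groups. Its calls against ACTA1-MCM mice add no support to the counts of this list. Ctss, a lysosomal protease, rose from 6.38 CPM to 94.0 and 262 CPM, and Mertk, a receptor for dead cells, from 3.79 CPM to 9.38 and 23.6 CPM. The summed level of the list was 72.3 to 79.2 CPM in ACTA1-MCM, 75.0 to 76.2 CPM in FLExD, 431 to 620 CPM in moderate and 1203 to 1447 CPM in severe mice.

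Genes of resident macrophages were mixed, with 9 of 11 higher and 0 lower in moderate mice, 8 higher and 1 lower in severe mice, and 8 higher and 2 lower between them, with medians of 1.31, 2.11 and 0.68. Siglec1, a sialic acid receptor, rose from 1.85 CPM to 15.8 CPM in moderate and 52.1 CPM in severe mice, and F13a1, the coagulation factor XIII A chain, from 21.0 CPM to 76.2 and 148 CPM. Retnla, a marker of alternative activation, was 14.7 CPM in ACTA1-MCM and 17.6 CPM in moderate mice and fell to 3.93 CPM in severe mice, by a log2 fold change of -1.90 ± 0.30 against ACTA1-MCM and -2.16 ± 0.29 against moderate mice. Under library size alone 10 of the list were higher and 0 lower in severe mice, and Retnla, at -0.60, was no longer called against ACTA1-MCM.

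Genes of inflammatory monocytes and macrophages were called higher in 9 of 11 cases in moderate mice, 10 in severe mice and 5 between the induced groups, with 1 lower in each, Nos2, and medians of 2.16, 2.77 and 0.59. Chi3l3, which encodes Ym1, rose from 0.166 CPM to 2.87 CPM in moderate and 13.2 CPM in severe mice. Thbs1, thrombospondin 1, rose by 1.51 ± 0.35 and 2.77 ± 0.36. Nos2, the inducible nitric oxide synthase, was 1.18, 0.657 and 0.220 CPM in ACTA1-MCM, moderate and severe mice, with log2 fold changes of -0.84 ± 0.33 and -2.41 ± 0.37. Its call in moderate mice was lost under library size alone, where 10 of the list were higher and 0 lower, and with DESeq2 and limma. Between severe and moderate mice 10 were higher and 1 lower under library size alone, but limma at either pseudocount called 0 lower there, and on log2(TPM + 1) also 0 in severe versus ACTA1-MCM mice.

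Genes of lipid-associated macrophages, the state that TREM2, GPNMB and SPP1 mark, were called higher in 12 of 18 cases and lower in 1 in moderate mice, 16 and 1 in severe mice, and 15 and 1 between them, with medians of 1.46, 2.27 and 0.92. Apoe, the lipid carrier apolipoprotein E, rose from 88.9 CPM to 306 CPM in moderate and 706 CPM in severe mice, and Itgax, the integrin CD11c, from 0.458 CPM to 11.3 and 21.5 CPM. Cd63, a tetraspanin of late endosomes, rose by 1.23 ± 0.09 and 2.15 ± 0.10. Lpl, lipoprotein lipase, which myofibers and adipocytes also make, fell from 289 CPM to 122 and 82.0 CPM, log2 fold changes of -1.25 ± 0.34 and -1.82 ± 0.35. Under library size alone Lpl was not called, and 17 of the list were higher and 0 lower in moderate and in severe mice.

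Products of repair macrophages were called higher in 8 of 8 tested genes of 9 listed in moderate mice, 7 higher and 1 lower in severe mice, and 5 higher and 1 lower between them. The medians were 2.35 and 2.89 in moderate and severe mice, or 1.89 and 2.86 with Gdf3 at its bound, and 0.88 between the induced groups. Gdf3, a TGF-beta family factor, had 0 counts in ACTA1-MCM mice and 36 and 150 counts summed over the moderate and severe mice, at least 2.64-fold and at least 7.96-fold higher than 3 counts per library. Gdf3 passed the count filter through the induced groups, so its calls against ACTA1-MCM mice add no support to the counts of this list. Il10 had at most 16 counts in a group and was not tested. Nampt, an enzyme of NAD synthesis that is also secreted, rose from 147 to 218 CPM in moderate mice (0.57 ± 0.16) and was 99.3 CPM in severe mice, -0.56 ± 0.16 under TMM but 0.73 under library size alone, where 8 of the list were higher and 0 lower in severe mice and 6 and 0 between the induced groups. Severe mouse 1047 was lowest for Nampt, with 57.8 TPM against 99.2 and 84.4 TPM in mice 1066 and 1079.

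Of the receptors of SPP1, 6 of 8 were called higher and 1 lower in moderate mice, 6 and 0 in severe mice, and 3 and 1 between them, with medians of 0.89, 0.70 and 0.10. Library size alone gave 7 higher and 0 lower, 8 and 0, and 6 and 0, with medians of 1.49, 2 and 0.80, and median-of-ratios factors gave 4 higher in severe mice. Cd44 rose from 8.20 CPM to 46.2 CPM in moderate and 95.9 CPM in severe mice, log2 fold changes of 2.49 ± 0.16 and 3.55 ± 0.17. Itgb1, the integrin beta 1 chain, which had the highest mean TPM of the list in each group, was 197, 347 and 338 CPM, with 0.81 ± 0.09 and 0.78 ± 0.09 against ACTA1-MCM. Itgb5, the integrin beta 5 chain, was 65.6, 31.2 and 53.6 CPM, with -1.07 ± 0.11 in moderate mice and an uncalled -0.29 ± 0.11 in severe mice that turned to 1.02 under library size alone.

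Transcription factors of the macrophage lineage had 7 of 12 higher and 2 lower in moderate mice, 6 and 4 in severe mice, and 5 and 4 between them, with medians of 0.83, 0.62 and 0.24; under library size alone 8 were higher and 0 lower in moderate mice, and 8 and 1 in severe mice. Runx1, a factor of blood and regenerating muscle, rose from 2.91 CPM to 26.2 and 66.0 CPM. Nr4a1, an orphan nuclear receptor, was 43.1 and 39.3 CPM in ACTA1-MCM and moderate mice and fell to 7.51 CPM in severe mice, by -2.52 ± 0.25. Maf was 131, 64.3 and 54.3 CPM, log2 fold changes of -1.02 ± 0.20 and -1.27 ± 0.20 under TMM, the latter turning to 0.04 under library size alone.

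**Figure D4:**
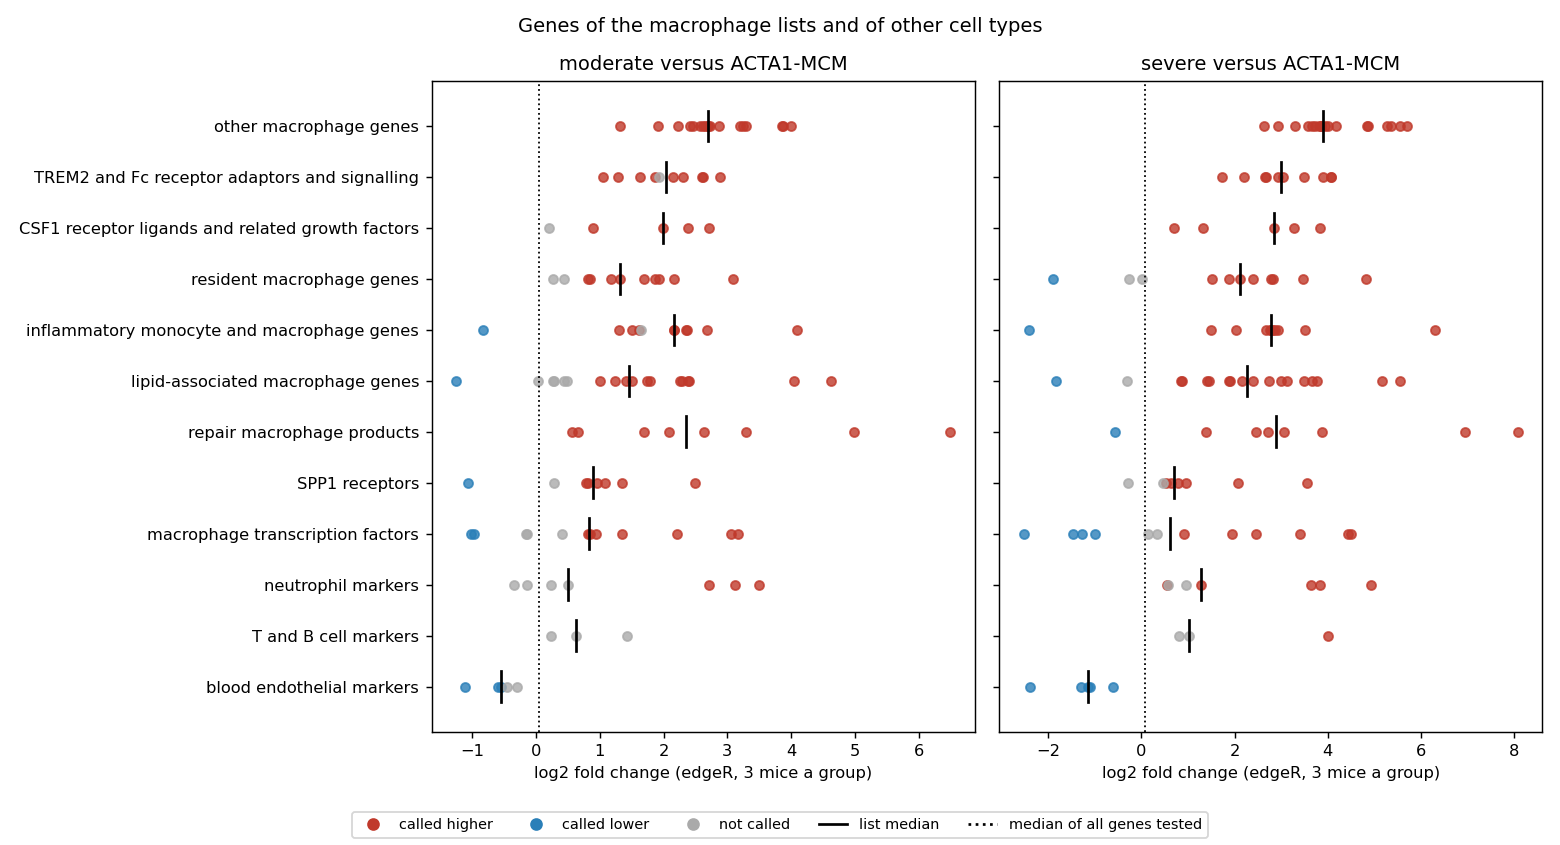
Log2 fold change from edgeR (horizontal axis) of each tested gene of 12 lists (vertical axis) in moderate and severe versus ACTA1-MCM mice, coloured by call, with list medians as bars and the median of all genes as a dotted line; Gdf3, at 0 counts in ACTA1-MCM mice, is drawn at its fitted value, which is no bound. All 18 other macrophage genes lie above 0 in both comparisons, with medians of 2.69 and 3.90, and the blood endothelial medians of -0.55 and -1.15 turn to 0.06 and 0.15 under library size alone.

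Several of the 10 genes are made by cells other than macrophages, so markers of those cells were read as well. Neutrophils also express Itgam, Lyz2 and Csf3r. Of 12 neutrophil genes 7 were tested, with 3 called higher in moderate mice, 5 in severe mice and 4 between them, 0 lower, and medians of 0.50, 1.27 and 0.88. Their summed level was 3.85 to 5.28 CPM in ACTA1-MCM, 3.81 to 4.13 CPM in FLExD, 5.42 to 11.9 CPM in moderate and 13.4 to 18 CPM in severe mice. Moderate mouse 1236, which was highest for 9 of the 10 genes, had 11.9 CPM. Mice 1308 and 1331 had 7.07 and 5.42 CPM. Retnlg had the highest mean TPM of the list in moderate and severe mice. Under library size alone all 7 were higher in severe mice and between the induced groups. S100a8 had 21, 37 and 107 counts over the ACTA1-MCM, moderate and severe mice and was called in severe mice (1.27 ± 0.41), and Retnlg had 10, 135 and 266 counts and was called in moderate (3.12 ± 0.64) and severe mice (3.63 ± 0.61). In moderate mice 1236, 1308 and 1331 Retnlg was 6.05, 2.78 and 1.42 TPM, so its moderate mean rests largely on mouse 1236. The granule genes Mpo, Elane, Ngp and Camp, which are transcribed mainly in neutrophil precursors, had 0 to 3 counts per group, and Ltf had 13 counts over the severe mice. Mmp8 had 1 count over the ACTA1-MCM mice, with ratios of 14.1 (95% interval 2.26 to 581) in moderate and 38.7 (6.74 to 1545) in severe mice. Mmp8 and Retnlg passed the count filter through the induced groups, so their calls against ACTA1-MCM mice add no support to the counts of this list. Cxcr2, a chemokine receptor of neutrophils, was 1.51, 1.19 and 2.20 CPM.

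Dendritic cells also express Csf1r and Itgam. Of their 7 genes 6 were tested, with 4 called higher in moderate mice, 3 in severe mice and 0 between them, where 1 was lower; the medians were 1.27, 1.02 and 0.08. With libraries scaled by size alone there were 6 higher in severe mice, with a median of 2.31, and 2 higher and 0 lower between the induced groups, and limma on log2(TPM + 0.1) gave 6, and 4 and 0. Zbtb46 was 9.20, 8.10 and 8.30 CPM in ACTA1-MCM, moderate and severe mice and was not called, and its -0.15 in severe mice turned to 1.15 under library size alone. Cd209a was likewise uncalled at -0.39 ± 0.33 in severe mice, turning to 0.91. Ccr7 had 3 counts over the ACTA1-MCM mice, with ratios of 6.70 (95% interval 2.08 to 34.3) in moderate and 7.32 (2.35 to 36.8) in severe mice. The summed level was 11.8 to 12.7 CPM in ACTA1-MCM, 11.7 to 12.2 CPM in FLExD, 12.6 to 14.2 CPM in moderate and 12 to 15.3 CPM in severe mice.

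Osteoclasts make Spp1 and melanocytes make Gpnmb. Of 7 osteoclast genes 6 were tested, with 3 higher and 0 lower in moderate mice, 4 and 1 in severe mice and 3 and 1 between them, with medians of 0.84, 2.29 and 1.18 (5 and 0 in severe mice under library size alone). Atp6v0d2, a subunit of the vacuolar proton pump that macrophages also express, had 5 counts over the ACTA1-MCM mice, a mean under 3 counts per library, and 193 and 669 over the moderate and severe mice (2.10 and 5.19 CPM). Nfatc1 was 27.4, 21.6 and 14.6 CPM, with -0.90 ± 0.09 in severe mice under TMM and 0.41 under library size alone. Of 6 melanocyte genes only Dct could be tested, with 27, 16 and 9 counts over the ACTA1-MCM, moderate and severe mice; it was called lower in severe mice, at -2.58 ± 0.62, and not in the other comparisons, at -1.31 ± 0.57 and -1.27 ± 0.69. The call of Dct was lost under library size alone (-1.31) and with limma on log2(TPM + 1) (-0.15) and log2(TPM + 0.1) (-0.55). Tyrp1 and Tyr had 0 to 5 counts per group.

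T and B cell genes were scarce, with 3 of 9 tested, 0 called in moderate mice and 1 higher in severe mice and between the induced groups, and medians of 0.62, 1.02 and 0.57; library size alone called 1 higher in moderate mice, 3 in severe mice (median 2.31) and 2 between the induced groups. The gene called under TMM was Cd4, which some macrophages also express, at 0.166, 0.442 and 2.68 CPM in ACTA1-MCM, moderate and severe mice. The T cell receptor genes Cd3e, Cd3d and Cd3g, which define T cells, had 9, 10 and 13 counts over the severe mice, and Cd8a was 0.192, 0.232 and 0.344 CPM. The summed level of the list was 1.04 to 1.2 CPM in ACTA1-MCM, 0.771 to 1.09 CPM in FLExD, 1.44 to 1.48 CPM in moderate and 2.95 to 4.73 CPM in severe mice.

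Of the RNAs of muscle cells themselves, those of myogenic genes rose with the 10 genes, while those of adult myofiber genes fell. Myogenic genes were called higher in 5 of 6 cases in moderate mice and 6 of 6 in severe mice and between them, with medians of 3.86, 5.33 and 1.78, and their summed level was 21.2 to 28.8 CPM in ACTA1-MCM, 26.0 to 32.0 CPM in FLExD, 331 to 592 CPM in moderate and 1251 to 1778 CPM in severe mice. Myh3, embryonic myosin, rose from 9.32 CPM to 239 and 1037 CPM, and Myod1 was 4.34, 5.51 and 22.1 CPM, called in severe mice. Tmem8c (myomaker) had 6 counts over the ACTA1-MCM mice, a mean under 3 counts per library, and 553 and 2986 over the moderate and severe mice (5.99 and 23.2 CPM). Moderate mouse 1236 and severe mouse 1047, the highest for most of the 10 genes, also had the highest summed myogenic level of their groups. In the severe group the lead was small, with 1778 CPM in mouse 1047 and 1745 CPM in mouse 1079, which was lowest for 5 of the 10 genes. Adult myofiber genes fell in 6 of 8 cases in moderate mice and 8 of 8 in severe mice and between them, with 0 higher and medians of -1.44, -3.68 and -2.30. Tnnt3, fast troponin T, fell from 17010 CPM to 6454 and 1469 CPM, and in severe mice Myh2 had the lowest value of the list, -5.56 ± 0.98, and Myh1 the least low, -2.26 ± 0.35. The part of these cells in the levels of the 10 genes was not tested.

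Fibroblast genes were called higher in 3 of 6 cases and lower in 0 in moderate mice, 4 and 1 in severe mice and 1 and 1 between them, with medians of 0.69, 1.36 and 0.57. The counts between severe and moderate mice lay near the shares of all genes tested, 17.6% higher and 18.8% lower. With libraries scaled by size alone 6 were higher and 0 lower in severe mice and 4 and 0 between the induced groups, with medians of 2.67 and 1.26. Col3a1 rose from 328 CPM to 1594 and 3128 CPM, and Dcn was 325, 291 and 188 CPM, with -0.79 ± 0.12 in severe mice under TMM and 0.51 under library size alone. In ACTA1-MCM mice 1127, 1246 and 1349 Col3a1 was 33.8, 44.9 and 106 TPM, so mouse 1349 raised its control mean. The summed level was 734, 959 and 2135 CPM in ACTA1-MCM mice, so mouse 1349 stood apart from the other 2, with 912 to 1187 CPM in FLExD, 2832 to 3017 CPM in moderate and 4783 to 6356 CPM in severe mice. Mouse 1349 was also the highest ACTA1-MCM mouse for 5 of the 10 genes. The part of fibroblasts in the levels of the 10 genes was not tested.

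Blood endothelial genes were called lower in 3 of 5 cases in moderate mice, 5 in severe mice and 4 between them, with 0 higher and medians of -0.55, -1.15 and -0.69 under TMM, but 1 higher and 1 lower with a median of 0.15 in severe mice under library size alone. Kdr, the VEGF receptor, was 38.1, 17.6 and 7.31 CPM, log2 fold changes of -1.11 ± 0.22 and -2.38 ± 0.23, and Pecam1 was 49.2, 39.9 and 32.4 CPM, with -0.60 ± 0.12 in severe mice turning to 0.70 under library size alone. Their summed level was 146 to 164 CPM in ACTA1-MCM, 133 to 192 CPM in FLExD, 92.6 to 122 CPM in moderate and 63.5 to 75.8 CPM in severe mice. Lymphatic endothelial genes were higher in 3 of 5 cases and lower in 0 in moderate mice, and 3 and 2 in severe mice and between them (3 and 0 under library size alone), with medians of 0.87, 1.47 and 0.59. Lyve1, shared with resident macrophages, rose by 1.70 ± 0.19 and 2.39 ± 0.18, Pdpn by 1.45 ± 0.17 and 2.04 ± 0.17, and Flt4 was -0.95 ± 0.16 in severe mice under TMM and 0.35 under library size alone. Erythroid genes, read as a measure of blood in the tissue, were called lower in 1 of 4 cases in moderate mice and 4 in severe mice and between them, with 0 higher and medians of -0.79, -3.02 and -2.26. Hbb-b1, a beta globin, was 180, 103 and 21.2 CPM, Alas2, the erythroid heme enzyme, 6.93, 3.25 and 1.30 CPM, and Hba-a2, an alpha globin, 160, 93.0 and 19.7 CPM. Their summed level was 349 to 428 CPM in ACTA1-MCM, 293 to 313 CPM in FLExD, 170 to 331 CPM in moderate and 32.1 to 78.8 CPM in severe mice. With library size alone 0 of 4 were called in moderate mice, with a median of -0.19, and 4 were lower in severe mice and between the induced groups.

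**Figure D5:**
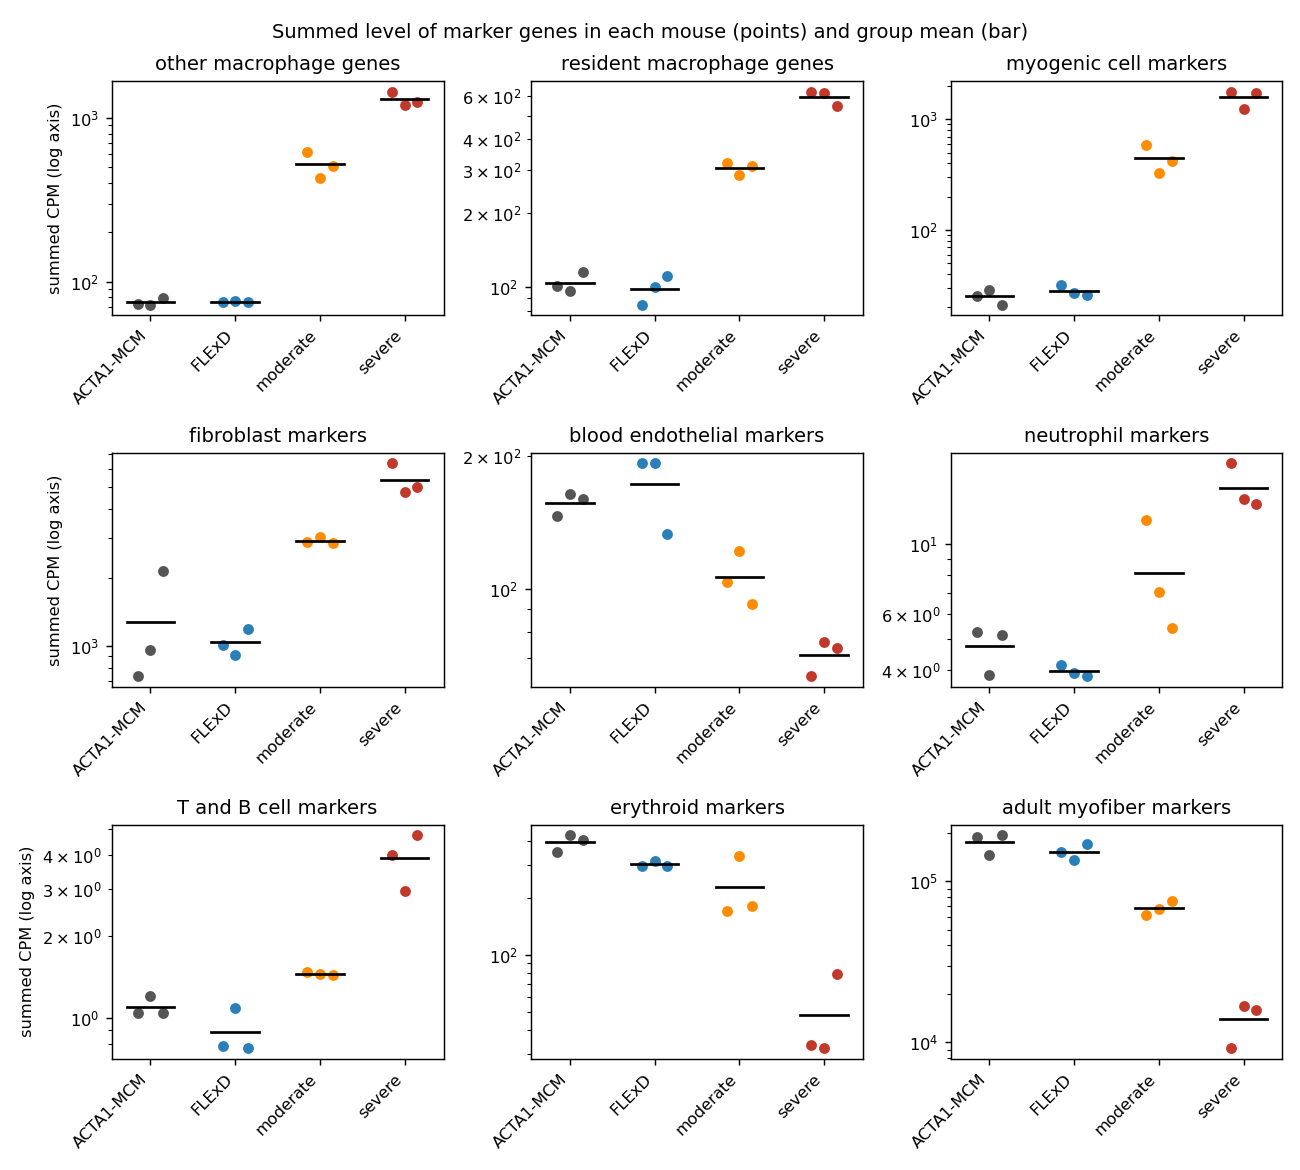
Summed level of each marker list in CPM on a log axis, with a point per mouse and a bar at the mean of 3 mice. Other macrophage genes rise from 72.3 to 79.2 CPM in ACTA1-MCM to 1203 to 1447 CPM in severe mice, neutrophil genes reach at most 18 CPM, and adult myofiber genes drop from at least 146452 CPM to at most 16873 CPM.

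The genes outside the 10 whose log2 CPM followed a member most closely over the 12 mice were found by Pearson r, which the differences between the groups dominate. For Emr1 they were Laptm5 (r = 0.9978), Igf2 (0.9967), Bub1 (0.9966), D17H6S56E-5 (0.9965) and Fcgr3 (0.9965). For Mrc1 they were Cd63 (r = 0.9965), F13a1 (0.9963), Gm10123 (0.9952), Clec4a2 (0.9951) and Ms4a6b (0.9948). The nearest genes of Gpnmb were Fyb (r = 0.9977), Tep1 (0.9957), D17H6S56E-5 (0.9949), Dpep2 (0.9948) and Tlr9 (0.9947). Those of Spp1 were BC037034 (r = 0.9977), Elmo1 (0.9947), Abhd2 (0.9929), Slc15a3 (0.9926) and C3ar1 (0.9923). A like pattern did not mean a like fold: the log2 fold change in severe mice was 1.45 for BC037034 and 7.11 for Spp1, and 2.15 for Cd63 and 2.64 for Mrc1.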

How the data were processed

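The authors mapped reads to mm10 with RSEM 1.2.4, Bowtie and TopHat2 2.0.8b, per the submitters' processing notes, and deposited expected counts per gene. TPM values were also deposited; they exceed 0 at 0 counts, so they are not a rescaling of the expected counts, and limma on TPM and ratios of TPM share this property. Expected counts were rounded to whole numbers, filtered with filterByExpr, scaled with TMM factors and tested with edgeR 4.0.16 (quasi-likelihood F-test, robust) in 1 fit of 4 groups of 3 mice; standard errors were derived from the F statistic. The procedure was tested on simulated counts in which a small share of genes changed, up or down, in the severe group alone. The simulation held no shift between groups like that of the TMM factors here, so it did not test the scaling. Ratios within a library were tested by exact permutation of mice (scipy 1.17.1). Positions came from GENCODE M21 on GRCm38. The members and lists were chosen with earlier results of these data known. Named genes are the 10 members, from each list the genes with the largest and smallest log2 fold change in severe mice and that of highest mean TPM over the 12 mice, and the 5 nearest genes by r (prior count 2) of Emr1, Mrc1, Gpnmb and Spp1; the untested genes, Cd3e, Cd3d and Cd3g, Lyz1, Hmgxb3, Gm49368, Gm42793, Csf2ra, Csf2rb and S100a8 were named after their values were seen. Intervals of ratios with 1 to 3 counts cover counting error alone. Alternatives were library size alone, median-of-ratios factors, DESeq2 1.42.0, limma 3.58.1 on log2(TPM + 1) or log2(TPM + 0.1), other filters and thresholds, only the 2 groups compared, each mouse left out, and ratios to C1qa, C1qb and C1qc or of TPM. Other samples and assays of the study were not used here.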

Additional observations from a re-analysis of the deposited data

Results flagged for a closer look

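Nampt was singled out because its change differed between the induced groups: called higher in moderate mice (log2 fold change 0.57 ± 0.16) and lower in severe mice (-0.56 ± 0.16), with a difference of -1.13 ± 0.16 between severe and moderate mice in edgeR. Under library size alone its value in severe versus ACTA1-MCM mice was 0.73, and the difference between severe and moderate mice was -0.45, under the fold threshold and so not called, as with limma on log2(TPM + 1) (-0.44) and log2(TPM + 0.1) (-0.45). Nampt was 57.8 TPM in severe mouse 1047 and 99.2 and 84.4 TPM in mice 1066 and 1079, so mouse 1047 lowered the severe mean. On this scale every severe mouse lay above the ACTA1-MCM mice, which had 45.4 to 54.8 TPM.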

How the results depend on the processing

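The 10 genes were called higher in moderate and severe mice under every alternative that could test them, with log2 fold changes of 4.02 to 5.65 and 6.72 to 8.42 for Spp1 and 1.54 to 2.27 and 2.54 to 3.95 for Mrc1. With at least 10 counts in every sample Fcgr1 and Trem2 could not be tested, and at a log2 fold change of at least 1 Csf1r (0.97) and Mrc1 (0.98) were no longer called between severe and moderate mice. Against ACTA1-MCM, 168 of 168 member values kept their direction and call in moderate and in severe mice, as did 166 of 168 between severe and moderate mice; in FLExD mice 13 of 166 changed sign with neither value called. Of 4738 values for other named genes, 4535 kept direction and call, 106 lost and 62 gained a call and 35 turned.

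Counts over all genes moved more, as did the median of all genes, which limma on log2(TPM + 1) put at 0.29 in moderate, 0.79 in severe and 0.49 in severe versus moderate mice. In FLExD mice the count higher was 2 with DESeq2, 1 with limma at either pseudocount and 0 to 1 with a mouse left out (1 without ACTA1-MCM mouse 1127), and the count lower was 0 with only the 2 groups compared. Under library size alone the counts higher and lower were 8764 and 752 in moderate, 12580 and 1070 in severe and 9648 and 823 in severe versus moderate mice. With limma on log2(TPM + 1) the counts lower were 737, 987 and 629, and those higher 10687 in severe and 8034 in severe versus moderate mice. On log2(TPM + 0.1) they were 7038 and 927, 12053 and 1132, and 9730 and 768. At a log2 fold change of at least 1 they were 2648 and 1172 in moderate and 1356 and 1391 in severe versus moderate mice, with 2928 lower in severe mice.

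Log2 fold changes that turned in severe versus ACTA1-MCM mice were, under library size alone, Cd209a 0.91, Dcn 0.51, Flt4 0.35, Itgb5 1.02, Maf 0.04, Nampt 0.73, Nfatc1 0.41, Pecam1 0.70 and Zbtb46 1.15. On log2(TPM + 1) they were Dcn 0.41, Flt4 0.13, Itgb5 0.88, Nampt 0.68, Nfatc1 0.20, Pecam1 0.60 and Zbtb46 0.84. On log2(TPM + 0.1) they were Cd209a 0.65, Dcn 0.41, Flt4 0.24, Itgb5 0.91, Nampt 0.69, Nfatc1 0.22, Pecam1 0.63 and Zbtb46 1.06. Between severe and moderate mice, library size alone gave Dcn 0.06, Itgb1 0.66 and Nfatc1 0.14, log2(TPM + 1) gave Dcn 0.08, Flt4 0.01, Itgb1 0.70 and Nfatc1 0.11, and log2(TPM + 0.1) gave Dcn 0.08, Flt4 0.01, Itgb1 0.71 and Nfatc1 0.12. Ratio differences that turned against C1qa, C1qb and C1qc were Lyz2 in moderate mice, 0.15, and, between severe and moderate mice, Cd68, -0.13, and Itgam, -0.09. As ratios of TPM, Lyz2 was 0.19 and 0.06 and Itgam -0.40 and -0.46 in moderate and severe mice, with Cd68 at -0.03 and Itgam at -0.07 between them. The cause was not tested. At 0.0676 to 0.155 CPM for 3 counts, depth limits Trem2 and Fcgr1 in control mice.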
